A study of Mus musculus with 12 samples.

Results

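The mitochondrial RNA factors and tRNA synthetases were followed as a set of 41 genes, taken by symbol from the 54532 genes of the deposited table. They comprise 2310061I04Rik (Rik), 9 genes of mitochondrial DNA transcription and replication, 14 genes of mitochondrial RNA stability and processing, 3 tRNA modifying enzymes and 14 mitochondrial tRNA synthetases. All 41 were found in the table, and all 41 passed the filter on low counts. RNA had been sequenced from 12 mouse embryos at embryonic day 9.5 (E9.5) of the C57BL6/J strain, 6 of genotype TRAF7-*/-* (KO) and 6 of wild type (WT). In the KO embryos Traf7 had been deleted in the whole body by crossing a floxed allele to an E2a-Cre transgene, and the asterisk marks a chromosome 17 that descends from a stem cell clone with a further deletion in intron 1 of Rik. Losing Traf7 and losing Rik therefore cannot be told apart in this comparison. The comparison asked how RNA levels in such embryos differ from those of WT embryos shortly before the KO embryos die.

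Mitochondria keep a small circular genome that encodes subunits of the respiratory chain, the 2 mitochondrial rRNAs and the tRNAs used to translate them. The nuclear genome supplies everything else: an RNA polymerase with its activators copies both strands into long transcripts, nucleases cut the tRNAs out and so free the mRNAs, RNA-binding proteins protect or destroy the products, and synthetases charge each tRNA with its amino acid. In midgestation embryos, as in other tissues, these nuclear genes are expressed broadly. Rik encodes a conserved protein to which the study knew no function, but which it places in mitochondria. From brains of mice lacking Rik, the study proposes that the protein may regulate how stable mitochondrial RNAs are. Rik was listed with these genes as the second gene disrupted on the KO chromosome.

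The stretch of Rik that is missing from the marked chromosome is shown first, because it sets the Rik result apart from the other members. It lies on the minus strand of chromosome 17 at chr17:35896200-35896258 (GRCm38), within intron 1, which runs from 35896073 to 35897190 between exon 1 and exon 2 of the GENCODE annotation. The reference letters were read from a GENCODE M21 transcript that keeps this intron, and the place of the stretch was set with the study's probe across the deletion. Its 59 bases can be placed in 3 ways, shifted by 1 base to either side, because the bases at both ends repeat. So placed it lies slightly farther from exon 2 of the annotation than the distance stated in the study's text, by more than that shift. The capitals mark, from left to right, recognition sites of the restriction enzymes HindIII, BclI and PvuII, of which each occurred 1 time in the stretch.
Rik intron 1 stretch: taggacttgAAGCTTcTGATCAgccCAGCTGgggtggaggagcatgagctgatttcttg

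Library totals ran from 16675204 to 21917571 counts, and levels are given as CPM, counts of a gene per 1000000 of the library total, where each total had first been multiplied by its TMM factor. Traf7 stood at 13.1 to 19.3 CPM in the KO embryos, against 114.5 to 144.3 CPM in WT, so no library went against its label at that gene. The embryo markers Hbb-y, a globin of primitive red cells, and Meox1, a somite gene, were detected in all 12 libraries. Of the postnatal brain markers, Opalin had 0 counts throughout and Mog and Gfap stayed under 0.5 CPM. KO embryos were unlike each other. Summed markers of the rear body were at 8.96 and 17.4 CPM in KO2 and KO3 and at 144 CPM in KO6, against 175 to 340 CPM in WT. Summed cardiac muscle markers were at 37.0 CPM in KO3, against 906 to 1298 CPM in WT. Summed yolk sac endoderm markers were at 476 CPM in KO6, 348 CPM in KO5 and 306 CPM in WT2, at 3.09 and 2.95 CPM in KO2 and KO3, and at 27.5 to 91.6 CPM in the other WT embryos. KO embryos 2, 3 and 5 are those in which the most genes left the WT range, and values without them are given beside several of the counts and members. Because they were picked by their distance from WT in these same data, estimates are apt to shrink without them.

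None of the 41 members passed the edgeR test at an adjusted p of 0.05, while 0.0203% of all genes tested did, namely 3 of 14804. At an unadjusted p of 0.05, 5 members were lower in KO embryos, against 7.72% of all genes tested, and 1 was higher, against 10.1%. The 5 were Rik, Elac2, Sars2, Polrmt and Aars2, and the 1 was Nars2. DESeq2 called 2 members, Rik and Nars2, with 2.13% of all genes called, and limma voom with quality weights called 1, Nars2, with 0.311% of all genes called. Over the 41 members the log2 fold change of KO over WT was below 0 in 26, against 48.4% of all genes tested. The median log2 fold change was -0.07, beside 0.01 over all genes tested. Without KO embryos 2, 3 and 5 it was 0.01, with 19 of 41 below 0 against 49.9% of all genes. Those embryos were picked from these same data. They are also the KO embryos in which the median deviation of the members other than Rik from the WT mean was below 0. Leaving out embryos with medians below 0 moves the median of the members upwards, and no conclusion is drawn from it. In 37 of 41 members the estimate lay within 0.25 of 0 on the log2 scale. Every KO value lay below every WT value for 2 members, Rik and Elac2, where 1.74% of all genes tested did so. Every KO value lay above every WT value for 1 member, Nars2, where 1.09% of all genes did so. In whole embryos, fewer cells of a type and less RNA per cell cannot be told apart.

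**Figure D1:**
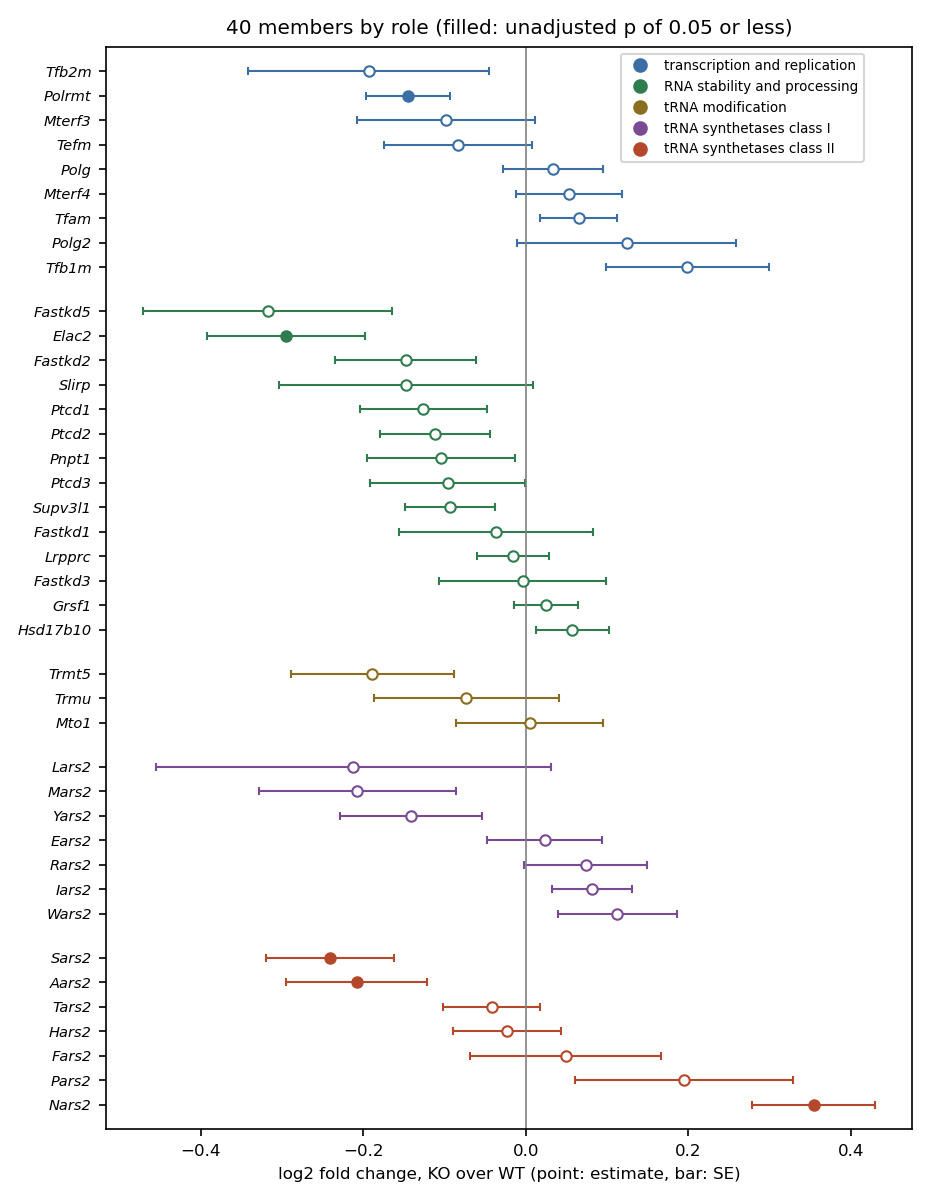
The log2 fold change of KO over WT (horizontal axis) for the 40 members other than Rik, grouped by role, with the point giving the edgeR estimate, the bar its standard error and a filled point an unadjusted p of 0.05 or less. Nars2, at 0.35, lies farthest to the right and Fastkd5, at -0.32, farthest to the left.

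Rik (ENSMUSG00000050705, chromosome 17, 35892677 to 35897431, minus strand) showed the widest gap of any member. It was at 1.14, 1.82, 2.03, 1.61, 1.31 and 6.39 CPM in KO1 to KO6, against 14.4, 7.20, 15.8, 8.05, 12.5 and 14.6 CPM in WT1 to WT6. KO1 to KO5 thus held 9.38% to 16.8% of the WT mean, KO6 held 52.8%, and KO6 lay only just below WT2, at 59.5%, and WT4, at 66.5%. The KO mean was 2.38 ± 1.99 CPM and the WT mean 12.1 ± 3.64 CPM (SD, n = 6 each), a fold of 0.196. The log2 fold change was -2.35 (SE 0.40), with an edgeR unadjusted p of 5.1e-05 and an adjusted p of 0.155. The call turned on KO6. Without that embryo the log2 fold change was -2.93 and the edgeR adjusted p was 8.33e-05, and leaving out any other embryo gave an adjusted p of 0.0741 or more. DESeq2 gave an adjusted p of 0.000147 with all embryos, and limma voom 0.0554. Adjusted p ran from 8.33e-05 to 0.292 over the 21 alternatives. Per kilobase of gene, Rik ranked 41 of 41 members in KO embryos, at 0.979 ± 0.820 FPKM (the authors' values scaled to gene length and depth), and 24 of 41 in WT, at 4.98 ± 1.50 FPKM (SD, n = 6 each). The genotype at the intron was not read from these data, and why KO6 held more Rik RNA than the other KO embryos was not tested.

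The genes next to Rik showed much smaller differences. Dhx16, an RNA helicase gene that ends 7 bases from Rik on the other strand, averaged 81.8 ± 3.91 CPM in KO embryos and 91.7 ± 3.23 CPM in WT. Its groups did not overlap, with a log2 fold change of -0.16 (SE 0.05, edgeR adjusted p = 0.169). Atat1, which encodes an alpha-tubulin acetyltransferase and ends 164 bases from Rik on the same strand, averaged 16.7 ± 2.56 CPM in KO embryos and 20.4 ± 3.31 CPM in WT, and its groups overlapped. Its log2 fold change was -0.29 (SE 0.13, edgeR adjusted p = 0.256). KO6, the highest KO embryo for Rik, was at 86.6 CPM for Dhx16 and 15.0 CPM for Atat1. The KO means were 81.8 ± 3.91 and 16.7 ± 2.56 CPM.

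**Figure D2:**
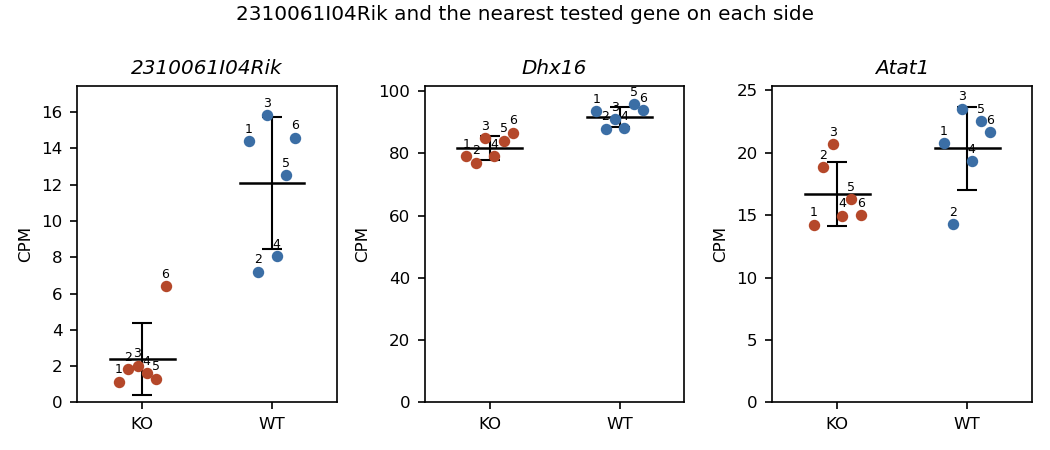
CPM (vertical axis, from 0) of Rik and of its nearest tested neighbour on each side, with 1 point per embryo numbered by replicate, and the line and bar giving the mean and SD of 6 KO and 6 WT embryos. KO6, at 6.39 CPM, stands well above the other KO embryos for Rik.

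The genes that copy and maintain mitochondrial DNA formed a group of 9 in which 4 had a log2 fold change below 0 and 5 above, with a median of 0.03, and without KO embryos 2, 3 and 5 there were 2 below and 7 above, with a median of 0.09. Polrmt, the mitochondrial RNA polymerase (chromosome 10, 79736123 to 79746581), had the smallest p among them. It was at 37.5, 37.3, 39.5, 37.5, 35.2 and 37.0 CPM in KO1 to KO6, against 43.1, 39.8, 39.6, 43.0, 43.6 and 38.4 CPM in WT1 to WT6. The groups overlapped only through KO3 and WT6. Its log2 fold change was -0.14 (SE 0.05), with an edgeR unadjusted p of 0.0135 and an adjusted p of 0.198. Without KO embryos 2, 3 and 5 it was again -0.14. Tfb1m, a dimethyltransferase of the small mitochondrial rRNA, followed with 18.1 ± 2.34 CPM in KO embryos and 15.8 ± 1.69 CPM in WT, and its log2 fold change was 0.20 (SE 0.10, edgeR adjusted p = 0.312). KO5 and KO4 were its highest embryos, at 21.4 and 20.3 CPM.

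Tfam, which packages mitochondrial DNA and binds its promoters, was the most abundant of this group per kilobase. It was at 23.4 ± 1.43 FPKM in KO embryos and 22.4 ± 0.801 FPKM in WT. Its log2 fold change was 0.06 (SE 0.05, edgeR adjusted p = 0.482), and the groups overlapped. Tfb2m, the factor that melts the promoter for the polymerase, was highest in KO1 at 17.96 CPM and lowest in KO5 at 8.29 CPM, against 14.4 to 17.6 CPM in WT. Its log2 fold change was -0.19 (SE 0.15), and -0.00 without KO embryos 2, 3 and 5. The remaining members were the elongation factor Tefm, the termination factor family members Mterf3 and Mterf4, and the DNA polymerase subunits Polg and Polg2. Their log2 fold changes ran from -0.10 in Mterf3 to 0.12 in Polg2, and none had an unadjusted p of 0.05 or less.

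Of the 14 genes of RNA stability and processing, 12 had a log2 fold change below 0 and 2 above. Their median was -0.10, and without KO embryos 2, 3 and 5 there were 8 below 0 and 6 above, with a median of -0.01. A single one of them, Elac2, passed an unadjusted p of 0.05. Elac2, the RNase Z that trims the 3′ ends of tRNA precursors (chromosome 11, 64979038 to 65002069), was at 77.6, 71.1, 65.0, 83.5, 51.3 and 82.2 CPM in KO1 to KO6. In WT1 to WT6 it was at 95.3, 84.6, 88.7, 87.7, 87.3 and 84.5 CPM. All KO embryos lay below all WT embryos, but KO4 and WT6 were separated by under 1 CPM, and KO5 lay farthest down. KO over WT gave a log2 fold change of -0.30 (SE 0.10), with an edgeR unadjusted p of 0.00884 and an adjusted p of 0.19. Without KO embryos 2, 3 and 5 it shrank to -0.12.

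Fastkd5, an RNA-binding protein needed to cut junctions that no tRNA marks, had the lowest estimate of the group. It was at 9.29, 7.05, 7.78, 9.01, 4.39 and 9.20 CPM in KO1 to KO6, against 9.10 to 10.4 CPM in WT. KO5 held 45.4% of the WT mean, whereas KO1 and KO6 lay inside the WT range. The log2 fold change was -0.32 (SE 0.15, edgeR adjusted p = 0.295), and it was -0.08 without KO embryos 2, 3 and 5. Fastkd5 lies within the gene body of Ubox5 on the same strand, so its counts are uncertain.

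Lrpprc and Slirp, which form a complex that holds mitochondrial mRNAs stable, had overlapping groups for both genes. Lrpprc averaged 122 ± 3.80 CPM in KO embryos and 123 ± 6.47 CPM in WT, with a log2 fold change of -0.02 (SE 0.04). Slirp averaged 5.35 ± 0.978 CPM in KO embryos and 5.92 ± 1.09 CPM in WT, with a log2 fold change of -0.15 (SE 0.16). The degradosome pair likewise had small estimates. Supv3l1, its helicase, had a log2 fold change of -0.09 (SE 0.06), and Pnpt1, its polynucleotide phosphorylase, had -0.10 (SE 0.09). Pnpt1 was at 28.5 CPM in KO5, 35.8 CPM in KO3 and 37.8 CPM in KO2, against 40.1 to 42.7 CPM in WT. KO1, KO4 and KO6, at 42.1 to 44.7 CPM, were at or above the middle of the WT range.

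Grsf1, a protein of the mitochondrial RNA granules, and Hsd17b10, a subunit of the RNase P that cuts the 5′ ends of tRNA precursors, were the 2 most abundant members per kilobase and the 2 of this group with estimates above 0. Hsd17b10 was at 70.4 ± 1.83 FPKM in KO embryos and 68.0 ± 3.68 FPKM in WT, and Grsf1 at 56.0 ± 1.72 FPKM in KO embryos and 55.3 ± 2.12 FPKM in WT. In CPM their log2 fold changes were 0.06 (SE 0.05) and 0.03 (SE 0.04), the narrowest errors among the members together with those of Lrpprc and Tfam. The pentatricopeptide genes Ptcd1, Ptcd2 and Ptcd3, whose proteins bind mitochondrial RNA, had log2 fold changes of -0.13, -0.11 and -0.10. Ptcd3, also a part of the small mitochondrial ribosomal subunit, was at 78.6 CPM in KO5, against 114 to 126 CPM in WT, and KO1, KO4 and KO6 were at 123 CPM or above.

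The 3 tRNA modifying enzymes had log2 fold changes of -0.19 for Trmt5, -0.07 for Trmu and 0.00 for Mto1. Trmt5, which methylates the base next to the anticodon, averaged 23.6 ± 3.26 CPM in KO embryos and 26.9 ± 3.04 CPM in WT (SE of the log2 fold change 0.10, edgeR adjusted p = 0.333). Its estimate was -0.12 without KO5, -0.12 without WT1 and -0.04 without KO embryos 2, 3 and 5. WT1, at 32.8 CPM, stood above the other WT embryos, at 24.8 to 27.4 CPM. Trmu and Mto1 modify the wobble uridine of a shared group of mitochondrial tRNAs, by adding sulfur and a taurine-derived group. Trmu averaged 8.36 ± 1.35 CPM in KO embryos and 8.79 ± 0.540 CPM in WT, and Mto1 15.1 ± 1.83 CPM in KO embryos and 15.1 ± 0.910 CPM in WT, with overlapping groups in both. All 3 enzymes were below every WT embryo in KO5 and in KO3, where 33.2% and 27.0% of all genes tested were.

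The 14 mitochondrial tRNA synthetases split evenly, with 7 below 0, 7 above and a median log2 fold change of 0.00. They are shown by catalytic class, which describes the fold of the enzyme and how it binds ATP. Of the 7 synthetases of class I, 3 were below 0 and 4 above, with a median of 0.02, and none had an unadjusted p of 0.05 or less. Mars2, for methionine, was at 23.6, 21.2, 18.2, 23.3, 13.2 and 21.6 CPM in KO1 to KO6, against 20.98 to 25.3 CPM in WT, with a log2 fold change of -0.21 (SE 0.12, edgeR adjusted p = 0.377). Its 2 low embryos were KO5 and KO3, and the estimate was -0.11 without KO5 and -0.03 without KO embryos 2, 3 and 5. Iars2, for isoleucine, was at 86.9 to 103 CPM in KO embryos, against 84.2 to 95.0 CPM in WT, with a log2 fold change of 0.08 (SE 0.05, edgeR adjusted p = 0.396).

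Lars2, for leucine, was the least even member among WT embryos. It was at 176, 156, 197, 176, 170 and 156 CPM in KO1 to KO6, against 90.0, 206, 223, 167, 164 and 345 CPM in WT1 to WT6. The KO values all lay inside the WT range, which spanned from WT1 to WT6. The log2 fold change was -0.21 and its SE of 0.24 was the second widest among the members, after that of Rik. The log2 fold change was 0.02 without WT6 and -0.36 without WT1. Wars2, for tryptophan, was the most even of the KO group, at 15.9 to 17.1 CPM, against 13.1 to 16.6 CPM in WT. Yars2, for tyrosine, was at 30.7 CPM in KO5 and at 38.3 to 45.5 CPM in the other KO embryos, against 42.1 to 50.4 CPM in WT, where WT1 was the highest. Ears2 and Rars2, for glutamate and arginine, had log2 fold changes of 0.02 and 0.07.

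The 7 synthetases of class II held both the highest estimate of all members and 2 of the lower ones. Nars2, for asparagine (chromosome 7, 96951505 to 97064758), was at 16.3, 16.6, 15.8, 15.1, 14.5 and 14.4 CPM in KO1 to KO6. In WT1 to WT6 it was at 11.4, 12.04, 12.1, 13.1, 12.7 and 11.1 CPM. All KO embryos lay above all WT embryos, and the KO SD of 0.905 CPM was close to the WT SD of 0.761 CPM. The fold was 1.28 and the log2 fold change 0.35 (SE 0.08), with an edgeR unadjusted p of 0.000352 and an adjusted p of 0.159. The estimate ran from 0.33 to 0.38 over the alternatives, 0.34 without KO embryos 2, 3 and 5, and the edgeR, DESeq2 and voom adjusted p ran from 0.00646 to 0.292, with 0.00646 in DESeq2 and 0.0483 in voom. Nars2 overlaps no other tested gene, and in level it ranked 36 of 41 members in KO embryos, at 2.19 ± 0.135 FPKM, and 40 of 41 in WT, at 1.72 ± 0.106 FPKM.

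Sars2, for serine, was at 29.0, 30.4, 26.5, 28.0, 21.8 and 29.1 CPM in KO1 to KO6, against 31.6, 29.4, 31.8, 33.1, 35.4 and 33.5 CPM in WT1 to WT6. Only KO2 and WT2 crossed. The estimate was a log2 fold change of -0.24 (SE 0.08), with an edgeR unadjusted p of 0.00801 and an adjusted p of 0.182, and it was -0.18 without KO embryos 2, 3 and 5. Aars2, for alanine, was at 43.8, 45.4, 36.5, 45.6, 32.3 and 44.4 CPM in KO1 to KO6, against 51.7, 44.5, 47.0, 52.2, 46.1 and 44.8 CPM in WT1 to WT6. KO5 and KO3 lay well under the WT range and the other KO embryos at its lower edge. The log2 fold change was -0.21 (SE 0.09), with an edgeR unadjusted p of 0.03 and an adjusted p of 0.237, and it was -0.10 without KO embryos 2, 3 and 5. Pars2, for proline, was at 19.2 CPM in KO5 and at 11.6 to 14.1 CPM in the other KO embryos, against 9.33 to 15.0 CPM in WT. Fars2, Hars2 and Tars2, for phenylalanine, histidine and threonine, had log2 fold changes of 0.05, -0.02 and -0.04.

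**Figure D3:**
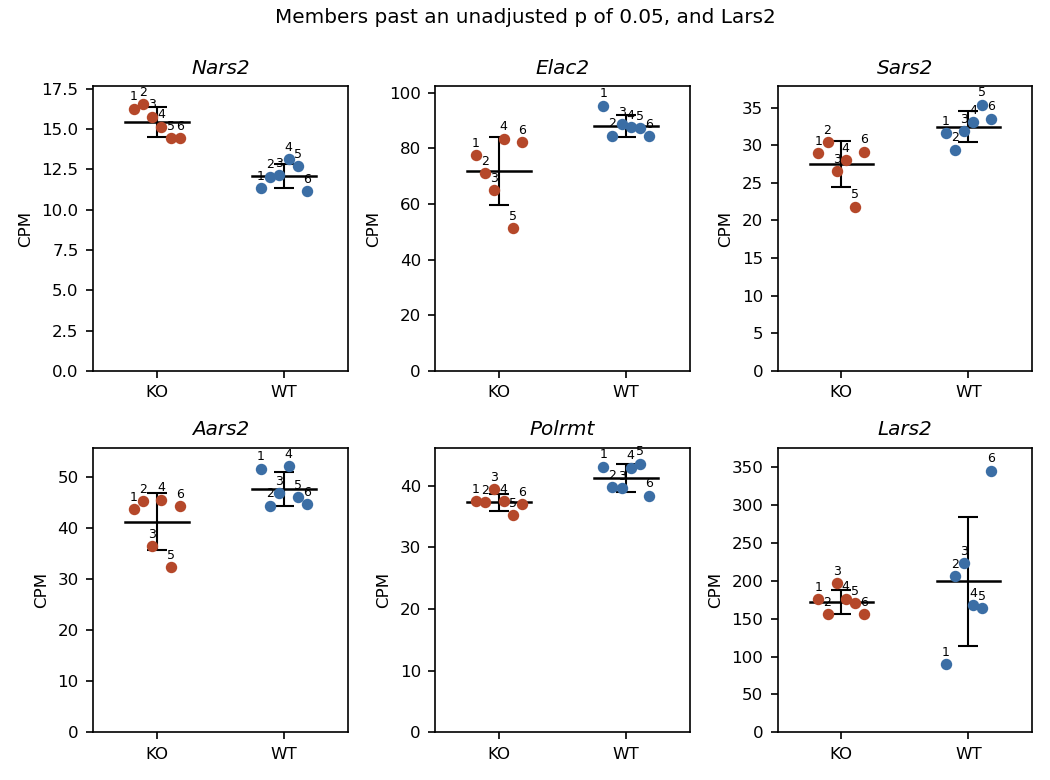
CPM (vertical axes, from 0) of Nars2, Elac2, Sars2, Aars2 and Polrmt, the members other than Rik with an unadjusted p of 0.05 or less, and of Lars2, with 1 numbered point per embryo and the line and bar giving the mean and SD of 6 KO and 6 WT embryos. Nars2 is separated upwards and Elac2 downwards, by less than 1 CPM at its closest, and Lars2 spreads from 90.0 to 345 CPM among WT embryos.

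Read embryo by embryo, the 40 members other than Rik shifted in some KO embryos and hardly at all in others. The median deviation of the members from the WT mean, on the log2 CPM scale, was 0.01 in KO1, -0.04 in KO2, -0.06 in KO3, 0.01 in KO4, -0.19 in KO5 and 0.01 in KO6. Each WT embryo set against the other 5 gave medians from -0.05 to 0.09, so KO5 and, narrowly, KO3 lay outside that range. The same median over all genes tested ran from 0.00 to 0.02 in the KO embryos. KO5 had 23 of 40 members below every WT embryo and 9 above, against 33.2% and 34.9% of all genes tested. KO3 had 16 below and 5 above, against 27.0% and 28.2% of all genes, and KO2 had 12 below and 1 above, against 22.8% and 22.7%. In KO1, KO4 and KO6 the counts below were 5, 8 and 6, against 15.2%, 18.3% and 15.9% of all genes, and the counts above were 7, 8 and 9, against 15.7%, 17.8% and 16.5%. KO5 was the lowest of the 12 embryos for 21 of the 40 members, where it was the lowest for 27.6% of all genes tested.

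**Figure D4:**
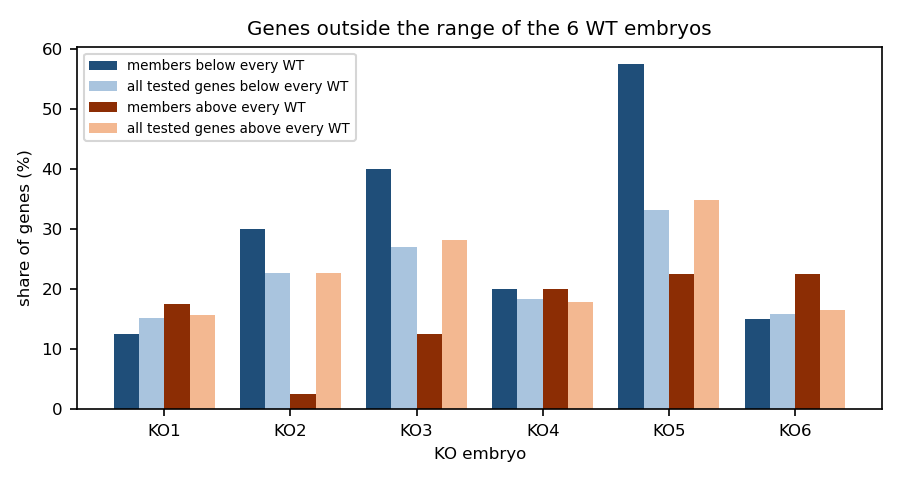
The share of genes (vertical axis, percent, from 0) that lay below or above all 6 WT embryos in each KO embryo (horizontal axis), for the 40 members other than Rik (dark bars) and for all genes tested (light bars). In KO5 the members lay below the WT range for 23 of 40 genes and above it for 9, while all genes divided into 33.2% and 34.9%.

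Of the 23 members that lay below every WT embryo in KO5, 10 were among the 14 genes of RNA stability and processing, 5 among the 9 of transcription and replication, 3 among the 3 tRNA modifying enzymes, and 3 and 2 among the synthetases of class I and class II. In the group of RNA stability and processing 1 gene lay above every WT embryo in KO5. Over all genes tested, 33.2% lay below and 34.9% above in that embryo. KO2 and KO3 each had 7 of the same 14 below and 0 above. All genes tested gave 22.8% and 27.0% below, and 22.7% and 28.2% above. Of the synthetases of class II, 4 of 7 lay above the WT range in KO5. These groups are small and each count rests on 1 embryo, and differences between role groups were not tested. In KO5, Tfb2m held 51.9% of the WT mean, Mars2 56.8%, Elac2 58.3% and Ptcd3 65.7%, whereas Pars2 held 157%, Fars2 139% and Tfb1m 135%. Fastkd3, an RNA-binding protein of the same family as Fastkd5, was at 17.3 CPM in KO5 and at 24.8 to 27.7 CPM in the other KO embryos, against 21.6 to 27.2 CPM in WT. KO5 thus held both low and high values among the members. Its markers stood apart too, with the high yolk sac endoderm sum given above and a sum of 20701 CPM over genes of the hypoxia response and glycolysis, against 10041 to 12957 CPM in WT. KO3 was next at 17697 CPM and the other KO embryos were at 12432 to 14367 CPM. The part of these in the members' values was not tested.

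**Figure D5:**
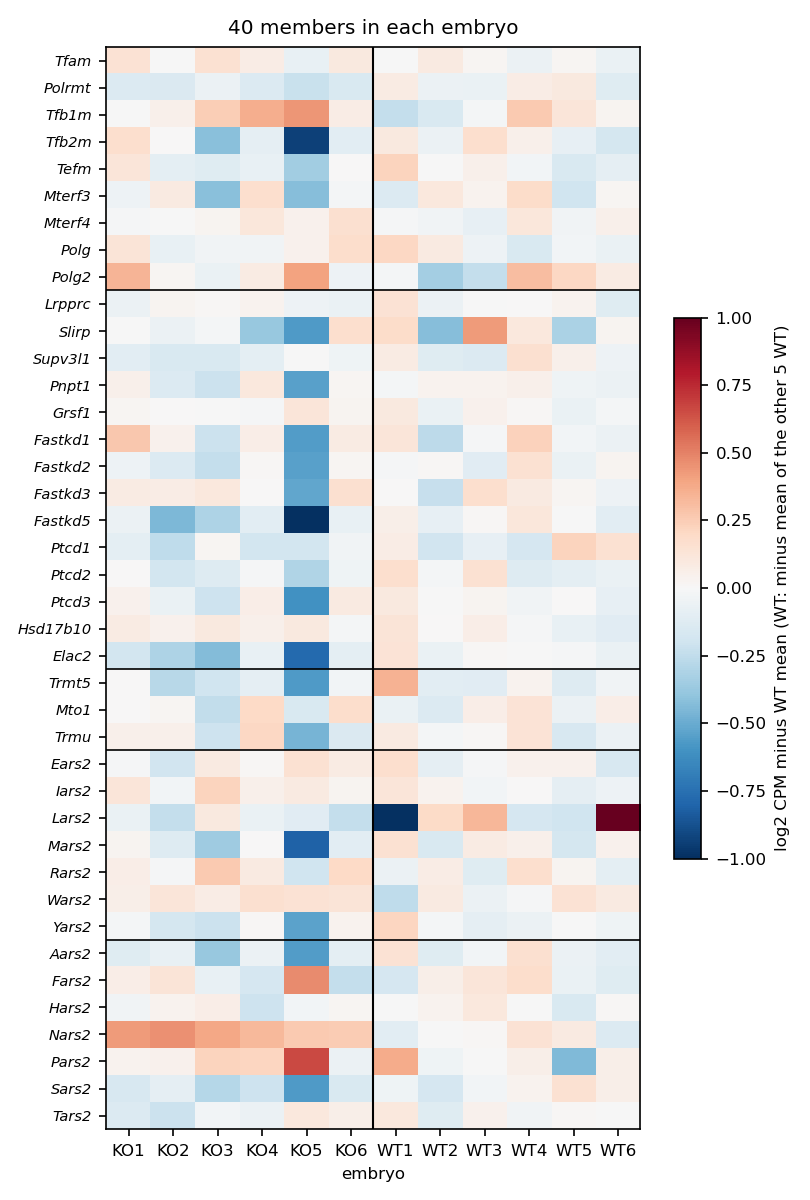
Each of the 40 members other than Rik (rows, grouped by role) in each embryo (columns), coloured by log2 CPM minus the WT mean, or for WT embryos minus the mean of the other 5, with the scale cut at -1 and 1. KO5 holds most of the dark blue cells, Nars2 is red in all 6 KO embryos, and Lars2 spans the scale within WT.

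RNAs of the mitochondrial genome, which these factors make and process, are given beside them. Their 13 mRNAs summed to 6995, 6696, 3993, 5153, 2575 and 3678 CPM in KO1 to KO6, against 9299, 8508, 7353, 6530, 8394 and 5675 CPM in WT1 to WT6. KO1 and KO2 lay within the WT range and the other KO embryos below it. Of the 12 mRNAs tested, 12 had a log2 fold change below 0, 9 with an unadjusted p of 0.05 or less, and the median was -0.66, beside 0.01 over all genes tested. Among all genes tested 48.4% were below 0 and 7.72% were lower at that p. None of the mRNAs was called by edgeR and 4 by DESeq2, which called 2.13% of all genes. The 2 with the smallest p were mt-Co2, a cytochrome c oxidase subunit, at -0.79 (SE 0.19, edgeR adjusted p = 0.165), and mt-Nd4l, a complex I subunit near the floor of detection, at -1.36 (SE 0.37, edgeR adjusted p = 0.169). The 2 rRNAs had estimates above 0, with mt-Rnr1 at 0.69 (SE 0.20, edgeR adjusted p = 0.169) and mt-Rnr2 at 0.45 (SE 0.29). KO6, with 3678 CPM of mitochondrial mRNA, had a median deviation of the members of 0.01 and KO5, the lowest embryo in mitochondrial mRNA, had -0.19. Whether the members and the mitochondrial mRNAs vary together was not tested.

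Further genes of the same pathways, 47 listed and 46 tested, resembled the members. Of them 29 were below 0 and 17 above, with 7 lower and 3 higher at an unadjusted p of 0.05. Among all genes tested 48.4% were below 0, 7.72% were lower and 10.1% higher. None of the 46 was called by edgeR, DESeq2 or voom, and their median log2 fold change was -0.05. Among 12 other genes of RNA processing and decay, 4 were lower and 1 higher, and Rexo2, an oligoribonuclease, was at -0.36 (SE 0.12, edgeR adjusted p = 0.18), with C1qbp, an RNA granule protein, at -0.14 (SE 0.05, edgeR adjusted p = 0.191). Among 9 other genes of tRNA charging, 1 was lower. Cars2, for cysteine, was at -0.38 (SE 0.17, edgeR adjusted p = 0.255) and Kars, for lysine in both compartments, at -0.08 (SE 0.04, edgeR adjusted p = 0.327). Among 9 other genes of mitochondrial DNA copying, Top1mt, a topoisomerase, was at 0.31 (SE 0.11, edgeR adjusted p = 0.201) and Rnaseh1, which removes RNA paired with DNA, at -0.21 (SE 0.10, edgeR adjusted p = 0.279). Among 16 other modification genes, Trit1, a tRNA isopentenyltransferase, was at 0.60 (SE 0.22, edgeR adjusted p = 0.201) with KO5 at 35.2 CPM and the other KO embryos at 13.5 to 17.3 CPM, and Pus1, a pseudouridine synthase, was at -0.21 (SE 0.10, edgeR adjusted p = 0.272).

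The cytosolic tRNA synthetases, which serve general translation, are set beside the mitochondrial ones. Of 18 tested, 8 were lower at an unadjusted p of 0.05 and 0 higher, against 7.72% and 10.1% of all genes tested. Every KO value lay below every WT value in 3 of the 18 and above in 0, against 1.74% and 1.09% of all genes. Of the 14 mitochondrial ones, 2 were lower and 1 higher at that p, and the difference between both lists was not tested. Over the 18 cytosolic ones the median log2 fold change was -0.06, and edgeR called 0 and DESeq2 1, Aars. Aars, for alanine, was at 246 ± 26.2 CPM in KO embryos and 294 ± 5.91 CPM in WT, with no overlap and a log2 fold change of -0.26 (SE 0.06, edgeR adjusted p = 0.165), close to the -0.21 of Aars2. Mars, for methionine, was at -0.17 (SE 0.05, edgeR adjusted p = 0.169), beside -0.21 for Mars2. For asparagine the pair parted: Nars averaged 239 ± 19.9 CPM in KO embryos and 242 ± 9.37 CPM in WT, with an estimate of -0.01 on the log2 scale (SE 0.05), beside 0.35 for Nars2. For serine, Sars was at 0.13 (SE 0.09) and Sars2 at -0.24.

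Nuclear regulators of mitochondrial genes showed no shared direction, with 4 of 8 below 0 and 4 above. Pprc1, a coactivator of the PGC-1 family, was at 139 ± 22.6 CPM in KO embryos and 164 ± 16.7 CPM in WT, with a log2 fold change of -0.24 (SE 0.10, edgeR adjusted p = 0.238). Ppargc1b, of the same family, was at 2.88 ± 1.50 CPM in KO embryos and 1.52 ± 0.366 CPM in WT, with a log2 fold change of 0.93 (SE 0.29, edgeR adjusted p = 0.174) and KO5 highest at 5.80 CPM. Genes of the hypoxia response and glycolysis were all above 0, with 15 of 15 tested higher at an unadjusted p of 0.05, against 10.1% of all genes. Their median log2 fold change was 0.66, although edgeR called none and DESeq2 called 11, against 2.13% of all genes. Pdk1, which restrains the oxidation of pyruvate within mitochondria, was at 1.11 (SE 0.21, edgeR adjusted p = 0.159). Bnip3, a receptor for mitochondrial removal, was at 1.74 (SE 0.36, edgeR adjusted p = 0.159). Both were highest in KO3 and KO5.

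The nuclear factors NRF-1 and the ETS family, to which GABP belongs, are known to act at promoters of many such genes, so promoter letters were searched for the NRF-1 motif, GCGCA and GCGC with any base between them, and the ETS motif, CCGGAAG, on both strands. RefSeq promoters (GRCm38.p6, 250 bases before to 50 after the start) matched 37 of the 41 members by symbol. The ETS motif was in 15 of 37 members, or 40.5%, against 19.0% of genes tested with a promoter and 9.93% of all genes with one. The NRF-1 motif was in 5 of 37, or 13.5%, against 10.9% and 5.19%. Both were in 2, Polrmt and Mars2. The median log2 fold change was -0.08 in the 15 members with the ETS motif and -0.04 in the 22 without. For the NRF-1 motif it was -0.13 in the 5 members with it and -0.06 in the 32 without, and neither difference was tested. A match is a description of the letters and not of binding.

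The promoters of Polrmt, which holds both motifs, and of Nars2, the member whose KO embryos all lay above WT and which holds neither, are printed to show what the search read. Polrmt lies on the minus strand at chr10:79746532-79746831 and Nars2 on the plus strand at chr7:96951277-96951576. The capitals mark 1 ETS match and 2 NRF-1 matches that overlap each other, all read on the strand opposite to the one printed.
Polrmt promoter: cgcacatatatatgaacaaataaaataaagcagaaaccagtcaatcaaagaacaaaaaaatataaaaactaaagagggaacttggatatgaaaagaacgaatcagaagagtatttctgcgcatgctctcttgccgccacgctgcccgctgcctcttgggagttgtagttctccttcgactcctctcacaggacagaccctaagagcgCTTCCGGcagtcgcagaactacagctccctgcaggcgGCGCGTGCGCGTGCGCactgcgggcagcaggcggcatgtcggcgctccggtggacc
Nars2 promoter: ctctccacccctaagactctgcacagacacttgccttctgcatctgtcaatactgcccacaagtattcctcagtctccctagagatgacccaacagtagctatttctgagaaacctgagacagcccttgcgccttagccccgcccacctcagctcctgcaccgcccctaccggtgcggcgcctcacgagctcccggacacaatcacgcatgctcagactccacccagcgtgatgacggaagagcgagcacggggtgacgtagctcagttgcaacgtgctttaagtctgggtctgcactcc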

How the data were processed

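RNA of 12 single E9.5 embryos was sequenced by a service company, and the series title and design text speak of brain while every sample label gives embryos, which were followed. The authors deposited 1 table with raw counts per gene and FPKM, made on GRCm38; neither aligner nor counter is named, and whether counting used strand is not given in the sources used here. With strand unknown, reads of the 13 members that overlap another tested gene (among them Elac2 by 31 bases, Fastkd5, Polg, Slirp and Iars2) could not be fully assigned. Columns with the authors' group means, log2 fold changes and p-values were not used, and 0 per-sample columns were left unused.

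Counts were tested in R 4.3.3 with edgeR 4.0.16 by its quasi-likelihood F test (TMM factors, genes kept by filterByExpr, a robust fit with no term besides group, Benjamini-Hochberg over 14804 genes, two-sided, called at 0.05). Log2 fold changes are KO over WT with their SE, CPM used TMM-scaled library sizes, deviations used log2 CPM with a prior count of 2, and groups are mean ± SD. DESeq2 1.42.0, limma 3.58.1 (voom with quality weights), other size factors, filters, a replicate block, a fit without robust weights and left-out embryos were alternatives. Replicate numbers did not pair libraries, with correlations of same-numbered deviations from -0.316 to 0.285. Fits were tested on simulated data. Library totals of 16675204 to 21917571 put a count of 3, the limit that 0 counts allow, at 0.137 to 0.18 CPM, for counting error only. The labels do not name litters, so p-values reflect only how these embryos spread. No libraries of a group were copies of each other.

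Members and lists were chosen with earlier results of these data known. Named were Rik and its nearest tested neighbours, members with an unadjusted p of 0.05 or less, with groups that do not overlap, with the 2 smallest p of a role group, with an embryo standing apart or with a call in any alternative, the 2 smallest p of each further list, and Traf7. Other members were named for their role after their values were seen.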

Additional observations from a re-analysis of the deposited data

Results flagged for a closer look

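Each group of 6 embryos was searched for a highest or lowest embryo whose gap to the next divided by the group's range exceeded Dixon's critical value for a group of 6. The search covered the 41 members in both genotypes, 82 groups, of which chance alone marks about 1 in 20. It marked 6. Rik was at 6.39 CPM in KO6, with the other KO embryos at 1.14 to 2.03 CPM. KO5 stood apart in 3 further genes. Fastkd3 was at 17.3 CPM in KO5, with 24.8 to 27.7 CPM in the other KO embryos. Grsf1 was at 183 CPM in KO5, with 167 to 172 CPM in the others, and Pars2 at 19.2 CPM in KO5, with 11.6 to 14.1 CPM in the others. WT1 stood apart in 2 genes, with Trmt5 at 32.8 CPM beside 24.8 to 27.4 CPM in the other WT embryos and Yars2 at 50.4 CPM beside 42.1 to 44.4 CPM.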

How the results depend on the processing

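No member was called by edgeR with all embryos. DESeq2 called 2 (Rik at -2.35, Nars2 at 0.35), voom called 1 (Nars2 at 0.35), and the left-out embryos gave 0 to 1 called members, the 1 being Rik without KO6. Leaving out 1 embryo at a time moved the log2 fold change of Rik between -2.93 and -2.21, the count of lower members between 4 and 7, that of higher members between 1 and 2, that below 0 between 24 and 27 and the median between -0.10 and -0.03. Members higher at an unadjusted p were 2 in voom, 2 with the replicate block and 2 without KO embryos 2, 3 and 5. The replicate block, over numbers that do not pair the embryos (2 of 6 correlated best with their own number), gave 0 called members, 7 lower and a Rik estimate of -2.52. Without KO embryos 2, 3 and 5 the median was 0.011 and 3 named members turned sign, Trmu to 0.042, Fastkd3 to 0.081 and Yars2 to 0.0064. In voom Trmu turned to 0.025 and Fastkd3 to 0.054. Fastkd3, whose estimate is near 0, was at 0.00044 without the filter, and between -0.040 and 0.082 when 1 embryo was left out. Of 315 values of the 15 named members other than Rik under alternatives, 304 kept direction and call, 9 turned sign with none called and 2, of Nars2, became calls. The cause of these changes was not tested. Depth limits Polg2, Slirp, Trmu, Fastkd5 and, in KO embryos, Rik, whose means lie under 10 CPM.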
